A study of Mus musculus with 57 samples.

Results

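Messages of fat cells were followed through 57 arrays of the mouse kidney, in 19 groups. The members are the adipocyte genes Adipoq, Retn, Lep, Cfd, Plin1, Cidec, Fabp4, Thrsp, Ucp1 and Cox8b. A gene was taken where a probe set carried exactly 1 symbol equal to a member. That gave 9 of the 10 members, each through 1 probe set, among 19938 genes measured by such probe sets. Cfd, which encodes adipsin, had no probe set with 1 symbol and is not described further. The genes were listed because their levels were seen to be high and uneven in the interstitial line of this series. A high and uneven level in that line is therefore the ground of their choice and was given no test.

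White fat cells store triglyceride in 1 large droplet and release hormones, whereas brown fat cells burn fatty acids to make heat. In the white fat cell, perilipin 1 and CIDEC coat the droplet, FABP4 carries fatty acids, and adiponectin, resistin and leptin are secreted. Brown fat cells are marked by the uncoupling protein UCP1 in the inner mitochondrial membrane. The kidney itself holds few adipocytes, but it is embedded in perirenal fat, which in mice contains both white and brown fat cells.

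All animals were male mice, and translating RNA was isolated by translating ribosome affinity purification (TRAP), in which antibodies to GFP pull down ribosomes that carry an eGFP-tagged L10a protein. The tag is encoded at Rosa26 (Rosa26-CAGGS-eGFPL10a) behind a stop cassette that Cre removes, so a cell that made Cre, and every cell descended from it, carries the tag. Each Cre line carried 1 Cre allele and 1 L10a allele on a mixed background of C57BL/6 and 129. The interstitial line used Foxd1-GFP::CRE, an allele active in progenitors of interstitial cells, pericytes and mesangium and also in podocytes. The nephron line used Six2-Tet-GFP::CRE, the endothelial line Cdh5-CRE and the myeloid line Lyz2-CRE. Each line was sampled with no surgery, 24 h after sham surgery and 24 h after ischemia-reperfusion injury (IRI), with 3 arrays a group, and the nephron line also 4 h after IRI with 3 arrays. For IRI a clamp closed the pedicles of both kidneys for 28 min, reached through flank incisions, and sham animals were operated on without it. Ages were 6 weeks in the interstitial and endothelial lines. In the nephron line they were 6 weeks without surgery and 8 weeks after it, and in the myeloid line 7 weeks except for 9.5 weeks in the IRI group. The L10a background mice carried the tag allele without Cre (4 IRI and 2 sham arrays), and the labels describe their signal as coming from podocytes and some collecting duct cells. Their genotype is given both as homozygous and as heterozygous. The wild-type background mice had no tag and are named C57BL/6, though their strain field gives the mixed background (4 IRI and 2 sham arrays). Total RNA of whole kidney came from L10a mice without Cre (3 IRI and 3 sham arrays), and these controls were 8 weeks old. The labels call the arrays of a group biological replicates.

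Promoter sequences of 4 members are given as landmarks, one for each way in which the members behaved. Adipoq stands for the genes that moved most closely together, and Thrsp for those also high in the endothelial line, as Fabp4 was. Ucp1 stands for the gene that varied most between arrays and Lep for the gene whose level rested most on 1 array. Each is the 200 bases before the start site in RefSeq (GRCm38.p6), written 5′ to 3′ on the strand of the gene. The stretches are chr16:23146336-23146535 for Adipoq on the plus strand, chr7:97417551-97417750 for Thrsp on the minus strand, chr8:83290148-83290347 for Ucp1 and chr6:29060021-29060220 for Lep, both on the plus strand. Capitals mark matches, on either strand, to CCAAT, to AGGTCA or to the palindrome TTGCGCAA.
Adipoq: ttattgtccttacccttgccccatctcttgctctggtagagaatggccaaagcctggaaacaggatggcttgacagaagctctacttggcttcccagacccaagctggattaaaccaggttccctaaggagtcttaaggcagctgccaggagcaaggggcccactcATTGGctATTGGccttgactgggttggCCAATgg
Thrsp: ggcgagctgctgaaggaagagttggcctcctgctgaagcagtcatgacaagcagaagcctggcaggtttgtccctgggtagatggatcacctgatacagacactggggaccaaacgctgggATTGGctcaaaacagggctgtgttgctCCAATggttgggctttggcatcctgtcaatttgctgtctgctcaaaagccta
Ucp1: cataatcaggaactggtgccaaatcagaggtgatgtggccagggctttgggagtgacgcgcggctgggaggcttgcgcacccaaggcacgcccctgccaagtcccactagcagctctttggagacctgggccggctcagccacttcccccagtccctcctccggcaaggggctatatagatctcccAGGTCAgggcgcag
Lep: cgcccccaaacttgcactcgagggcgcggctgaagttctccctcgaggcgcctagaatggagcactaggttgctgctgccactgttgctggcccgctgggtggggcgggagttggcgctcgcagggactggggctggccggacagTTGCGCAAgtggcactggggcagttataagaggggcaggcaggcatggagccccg
CCAAT stood in the promoters of Adipoq, with 3 matches, and Thrsp, with 2, where the search covered 250 bases before the start. Of 32851 mouse promoters of that length, 33.8% held it. AGGTCA, the core of sites for nuclear receptors, stood in the Ucp1 promoter and in 14.0% of all promoters. TTGCGCAA, a palindrome bound by C/EBP factors, stood in the Lep promoter and in 0.164% of all promoters. TATAAA (12.4% of promoters), the E-box CACGTG (6.02%) and DR1, a repeat of the nuclear receptor core with a gap of 1 base (0.0335%), were found in none of the 9 listed members that had an entry, Cfd included. The table had no entry for Fabp4. A match is a description of the letters, and no measurement here bears on binding.

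The values were log2 of deposited intensities, and on the linear scale the medians of the 51 TRAP arrays ran from 105.8 to 128.4, whereas those of the 6 total RNA arrays ran from 43.9 to 53.3. Total RNA levels were therefore not set beside TRAP levels. The interstitial line carried its markers: the mean log2 level of 16 interstitial, pericyte and mesangial markers lay between 9.99 and 10.80 in its arrays. In the arrays of the other 3 lines that mean lay between 7.52 and 8.59. The macrophage list reached 11.70 to 12.17 in the myeloid line but also 10.01 to 11.54 in the endothelial line. Myeloid arrays without surgery also held tubule messages, with means of 12.77 for Slc34a1 and 12.38 for Umod. Several single arrays stood apart from their group in the members. Replicate 1 of the wild-type background IRI group was highest of its group in all 9 members, replicate 2 of the myeloid sham group in all 9, and replicate 1 of the nephron sham group in all 9. In the L10a background IRI group, replicates 1 and 2 held the highest value of every member. Member calls in these groups are given with and without them.

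Without surgery, 8 of the 9 members were higher in every interstitial array than in any array of the nephron, endothelial and myeloid lines. Fabp4 was the exception. Of all 19938 genes, 5.16% were higher in the interstitial arrays in that way. Because the members were chosen on these levels, the values are a description with no test. The number of fat cells in the material and the RNA per fat cell cannot be told apart in these bulk samples. Whether the messages came from fat cells was not tested.

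**Figure D1:**
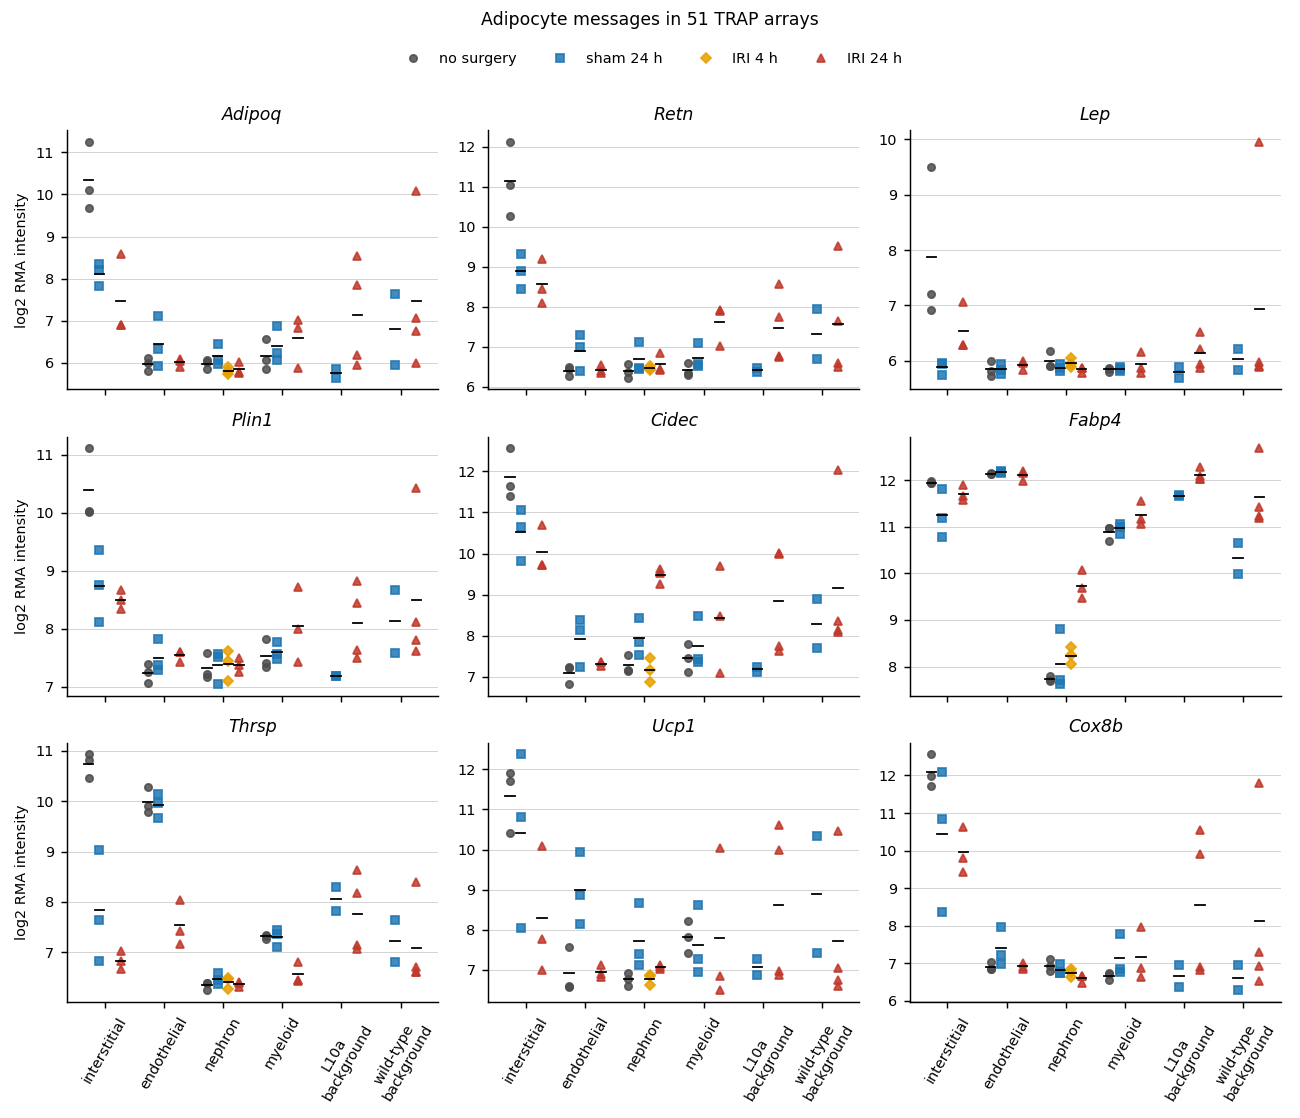
Log2 RMA intensity of the 9 members (one panel each, with its own vertical scale) in the 51 TRAP arrays, by line or background control along the horizontal axis; each symbol is 1 array, shapes and colours give the treatment, and bars are group means. For Adipoq the 3 interstitial arrays without surgery lie between 9.68 and 11.24, while Fabp4 has its lowest mean in the nephron line without surgery, at 7.73.

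Among the secreted products, Adipoq, which encodes adiponectin, read 11.24, 9.68 and 10.11 in the 3 interstitial arrays without surgery, a mean of 10.34 ± 0.81 (SD, n = 3). The next groups in its order were interstitial sham at 8.12 ± 0.27, then interstitial IRI at 7.47 ± 0.96 and wild-type background IRI at 7.47 ± 1.79 (n = 4). The lowest of the 17 TRAP groups was L10a background sham at 5.75 ± 0.14 (n = 2). Only 1 of the 16 pairs of neighbours in this order lay further apart than the larger of their 2 SDs. Retn, which encodes resistin, read 12.11, 10.26 and 11.04 without surgery in the interstitial line (11.14 ± 0.93). It stayed between 6.22 and 6.60 in the no-surgery arrays of the other 3 lines. Lep, the leptin gene, read 9.51 in 1 interstitial array without surgery and 6.91 and 7.20 in the others. Every other no-surgery array lay between 5.72 and 6.17, so 1 array carried most of the Lep signal.

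For the droplet proteins the same group led. Plin1 read 11.11, 10.03 and 10.01 in the interstitial arrays without surgery (10.38 ± 0.63) and 7.06 to 7.83 in the no-surgery arrays of the other lines. Cidec, whose product fuses droplets, read 12.56, 11.39 and 11.64 there (11.86 ± 0.62) against 6.83 to 7.80 elsewhere without surgery. Fabp4, the fatty acid binding protein that capillary endothelium and macrophages also make, had a different order. Its top group was endothelial sham (12.18, 12.14 and 12.20), interstitial no surgery read 11.97, 11.93 and 11.94, and myeloid no surgery 10.69, 10.98 and 10.97. Its lowest group was nephron no surgery at 7.73 ± 0.05. Of its 16 neighbour pairs 6 lay further apart than the larger SD, the most of any member.

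Thrsp, a regulator of fatty acid synthesis, was high in 2 lines. It read 10.93, 10.47 and 10.82 in the interstitial line without surgery (10.74 ± 0.24) and 9.79, 9.90 and 10.29 in the endothelial line (9.99 ± 0.27). In the nephron line it read 6.25 to 6.39 and in the myeloid line 7.27 to 7.34. The brown fat gene Ucp1 read 10.40, 11.70 and 11.91 in the interstitial arrays without surgery (11.34 ± 0.82). Cox8b, the form of cytochrome c oxidase subunit 8 found in brown fat and muscle, read 11.71, 12.56 and 11.98 (12.08 ± 0.43). In the other lines without surgery Cox8b lay between 6.56 and 7.10 and Ucp1 between 6.58 and 8.22. No neighbouring groups of Ucp1, Cox8b or Lep lay further apart than the larger SD, in any of their 16 pairs each.

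After sham surgery 5 of the 9 members were still higher in every interstitial array than in all arrays of the other 3 lines, beside 7.18% of all genes. After IRI these were 4 of 9 (Retn, Cidec, Cox8b and Lep), beside 5.25% of all genes. Group means in the interstitial line ran downward in the order no surgery, sham, IRI for 7 of 9 members and for 21.4% of all genes. Fabp4 and Lep were lowest after sham. The members were chosen for a high level in this line, so these counts are a description and are not independent of that choice.

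The effect of the operation itself was read from sham against no surgery in the interstitial line. Thrsp, Retn and Plin1 were lower after sham, the 3 of 9 members that passed the test. The no-surgery arrays are also those on which the members were chosen for their high level, so this comparison is not independent of the choice. The test was limma's moderated test within the 9 arrays of the line, with p-values adjusted over all 18961 genes tested (Benjamini-Hochberg) and a threshold of 0.05. Of all genes tested 2.34% passed in either direction, 1.85% being higher and 0.496% lower. P-values measure the spread between these arrays.

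Thrsp read 9.03, 7.64 and 6.83 after sham, all below its 3 no-surgery values. The log2 difference was -2.90 ± 0.45 (SE), with an adjusted p of 0.035. Retn read 9.32, 8.90 and 8.44 after sham, again with no overlap, a difference of -2.25 ± 0.45 (adjusted p = 0.046). Plin1 read 9.35, 8.76 and 8.11, a difference of -1.64 ± 0.35 (adjusted p = 0.049). These calls lay close to the threshold. Without no-surgery replicate 1, the array with the highest values of 7 members, the differences were -2.81 for Thrsp (adjusted p = 0.12), -1.76 for Retn (0.12) and -1.28 for Plin1 (0.13). The calls were also lost without no-surgery replicate 2, sham replicate 2 or sham replicate 3, with adjusted p-values from 0.11 to 0.2 for Thrsp, Retn and Plin1. Quantile normalisation ended all 3 calls, with adjusted p-values of 0.05 for Thrsp, 0.057 for Retn and 0.058 for Plin1.

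The remaining 6 members did not pass between sham and no surgery. Adipoq read 8.34, 8.21 and 7.82 after sham, with no overlap and a difference of -2.22 ± 0.49 (adjusted p = 0.052). Cidec read 11.06, 10.65 and 9.83, with no overlap and a difference of -1.35 ± 0.41 (adjusted p = 0.1). Lep read 5.73, 5.94 and 5.96, also below all no-surgery arrays (-1.998 ± 0.58, adjusted p = 0.091). These sham readings of Lep lay below the median intensity of every TRAP array. Fabp4 read 11.80, 11.18 and 10.77 and did not overlap either (-0.70 ± 0.22, adjusted p = 0.11). Without sham replicate 1 the Fabp4 difference was -0.97 ± 0.14 (adjusted p = 0.03). In all, 7 members did not overlap between the groups, with 12.5% of all genes lower in that way. The exceptions were Cox8b (12.09, 10.84 and 8.37 after sham) and Ucp1 (12.37, 10.81 and 8.05), whose sham arrays ranged over more than the difference of -1.65 ± 0.78 for Cox8b (adjusted p = 0.28) and -0.93 ± 1.09 for Ucp1 (0.72). The median log2 difference was -1.65 over the 9 members and -0.043 over all genes.

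Injury was read from IRI against sham in the same line, which shares its 3 sham arrays with the comparison before. None of the 9 members passed, whereas 33.8% of all genes did, and none had an unadjusted limma p under 0.05. Thrsp read 7.02, 6.66 and 6.82 after IRI, overlapping the sham arrays at their lower end (-0.999 ± 0.45, adjusted p = 0.12). Adipoq read 6.91, 6.91 and 8.58, with 1 IRI array above all sham arrays (-0.66 ± 0.49, adjusted p = 0.34). Without that array, IRI replicate 3, the Adipoq difference was -1.21 ± 0.39 (adjusted p = 0.049). Retn read 8.43, 8.10 and 9.19 (-0.31 ± 0.45), Plin1 8.34, 8.50 and 8.67 (-0.24 ± 0.35) and Cidec 9.72, 9.71 and 10.70 (-0.47 ± 0.41), each overlapping its sham values.

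Ucp1 and Cox8b spread widely between arrays. Ucp1 read 10.09, 6.99 and 7.77 after IRI (-2.12 ± 1.09 against sham, adjusted p = 0.17), and Cox8b 9.79, 9.44 and 10.63 (-0.48 ± 0.78, adjusted p = 0.67). One array decided these values: without sham replicate 3 the differences were -3.30 ± 0.90 for Ucp1 (adjusted p = 0.027), -1.51 ± 0.45 for Cox8b (0.039) and -1.50 ± 0.35 for Thrsp (0.015). Fabp4 read 11.65, 11.58 and 11.90 (0.46 ± 0.22, adjusted p = 0.14), and 0.73 ± 0.14 without sham replicate 1 (adjusted p = 0.0064). Lep read 6.28, 6.29 and 7.06, all above the sham arrays (0.67 ± 0.58, adjusted p = 0.4). It was the 1 member whose groups did not overlap, beside 28.1% of all genes higher in that way. All sham readings of Lep and its IRI readings of 6.28 and 6.29 lay below the median intensity of every TRAP array. Member and gene medians were -0.471 and 0.048.

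Set directly against no surgery, the IRI arrays were lower in 5 members that passed: Adipoq, Retn, Cidec, Thrsp and Plin1. This comparison was added after the data were seen and uses the no-surgery arrays in which the members were noticed as high, so its p-values are not independent of the choice of members. Of all genes 34.4% passed in either direction and 19.8% were lower. Thrsp fell by 3.90 on the log2 scale (SE 0.45, adjusted p = 0.00023) and Adipoq fell by 2.88 (SE 0.49, adjusted p = 0.0019). Retn fell by 2.56 (SE 0.45, adjusted p = 0.0022), Plin1 fell by 1.88 (SE 0.35, adjusted p = 0.0029) and Cidec fell by 1.82 (SE 0.41, adjusted p = 0.0073). The IRI and no-surgery arrays did not overlap in 8 members, with Lep as the exception, beside 24.2% of all genes lower in that way. The median log2 difference was -2.13 over the 9 members and 0.023 over all genes. Ucp1 (-3.05 ± 1.09, adjusted p = 0.056) and Cox8b (-2.13 ± 0.78, 0.063) did not overlap and did not pass. Ucp1 passed without IRI replicate 1 (-3.96 ± 1.07, adjusted p = 0.023). Lep passed without no-surgery replicate 2 (-1.81 ± 0.57, adjusted p = 0.044) and had a difference of -1.33 ± 0.58 with all arrays (0.11). Fabp4 differed by -0.24 ± 0.22 (adjusted p = 0.45).

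**Figure D2:**
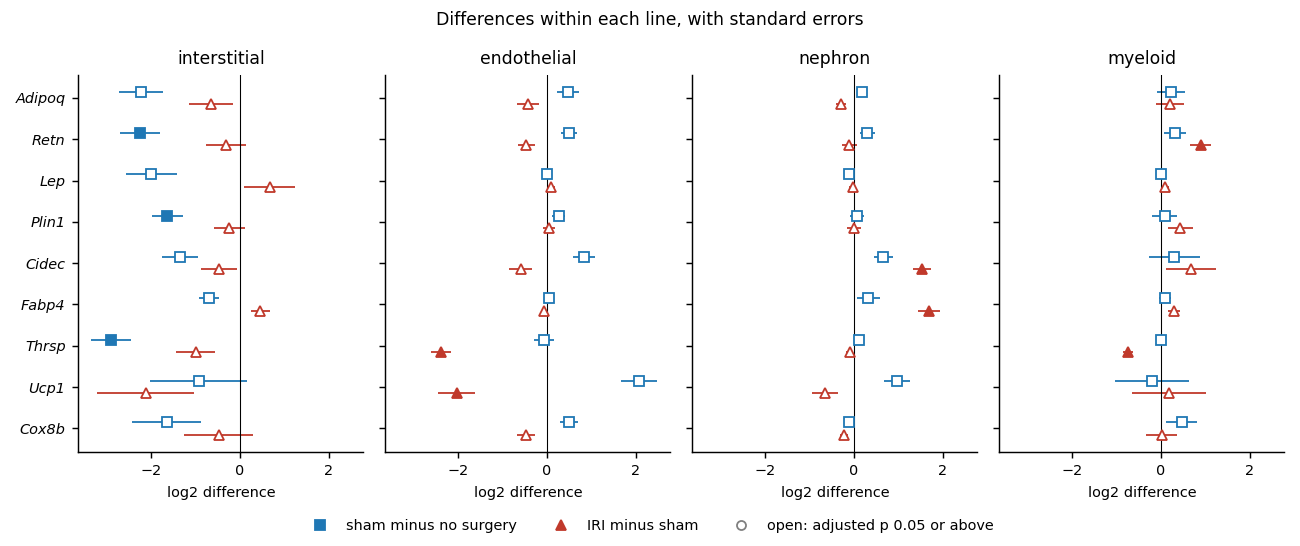
Log2 differences (horizontal axis) of the 9 members within each of the 4 Cre lines, sham minus no surgery (blue squares) and IRI minus sham (red triangles), with standard errors as bars; filled symbols had a limma adjusted p under 0.05. In the interstitial panel the squares of Thrsp, Retn and Plin1 are filled and no triangle is.

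Markers of other cells moved as well. Between interstitial no surgery and sham, 0 of 16 interstitial markers and 0 of 9 genes of adipose stroma passed, while 2 of 12 endothelial markers (Tek and Tie1) and 2 of 10 proximal tubule markers (Acsm1 and Slc5a12) were higher. The mean level of the 9 adipose stroma genes ran from 8.81 to 9.27 without surgery, from 8.68 to 8.81 after sham and from 8.59 to 8.93 after IRI. The interstitial list ran from 10.41 to 10.80, from 10.24 to 10.51 and from 9.99 to 10.23 in the same order. The proximal tubule list ran from 11.18 to 11.69, from 11.88 to 12.09 and from 10.45 to 10.62. Adrenal markers, from the organ beside the kidney, stayed between 5.80 and 6.16 in all 9 arrays. The part of these shifts in the members' values was not tested.

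Single interstitial arrays did not rank the members alike. Without surgery, replicate 1 was the highest of its group in 7 members and the lowest in both brown fat genes, Ucp1 and Cox8b. After sham, replicate 1 was highest in 8 members and replicate 3 lowest in the same number, with Lep the exception. After IRI, replicate 3 was highest in 7 members, while replicate 1 led in Ucp1 (10.09 against 6.99 and 7.77) and Thrsp. The residual SD within the interstitial line was 1.64 log2 units for Ucp1, above 99.99% of all genes, and 1.18 for Cox8b, above 99.96%. It was 0.741 for Adipoq and 0.315 for Fabp4, above 91.96%, where the median gene had 0.15. An uneven level in this line was part of the ground of choice, so these ranks are a description and follow in part from it. In the nephron line the largest SD among the members was 0.427, for Ucp1, and in the myeloid line 1.25, also for Ucp1.

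**Figure D3:**
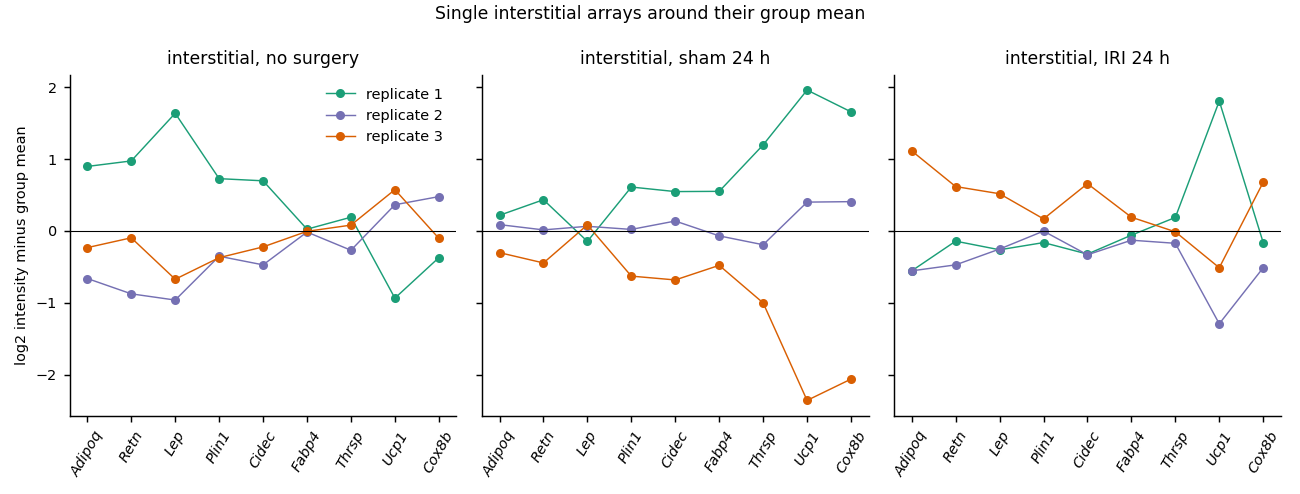
Log2 intensity of each interstitial array minus the mean of its group (vertical axis) for the 9 members, in 3 panels for no surgery, sham and IRI; each line joins the values of 1 array. Replicate 1 without surgery lies above its group mean for Adipoq, Retn, Lep, Plin1 and Cidec and below it for Ucp1 and Cox8b, and the sham arrays spread most in Ucp1, from 8.05 to 12.37.

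In the nephron line, which traces the tubule epithelium, Cidec and Fabp4 rose 24 h after IRI. All nephron comparisons share the same sham arrays, as do those within each of the other lines. Cidec read 8.43, 7.54 and 7.85 after sham and 9.53, 9.63 and 9.25 after IRI. Every IRI array was above every sham array, and the log2 difference was 1.53 ± 0.21 (adjusted p = 8e-05). Fabp4 read 8.81, 7.63 and 7.72 after sham and 10.06, 9.69 and 9.46 after IRI, again without overlap (1.68 ± 0.25, adjusted p = 0.00016). In 1 fit of all 57 arrays, which shares the spread of every group, Cidec did not pass (adjusted p = 0.11). Without sham replicate 1, the array that was high in every member, the differences were 1.77 ± 0.18 for Cidec (adjusted p = 2.1e-05) and 2.06 ± 0.15 for Fabp4 (2.5e-06). These were the 2 members that passed, where 40.3% of all genes did. Of all genes 19.0% passed as higher and 21.4% as lower, and 22.2% were higher without overlap between the groups. The droplet gene Plin1, which fat cells use beside Cidec, read 7.57, 7.05 and 7.52 after sham and 7.50, 7.37 and 7.26 after IRI, a difference of -0.00 ± 0.16. Adipoq differed by -0.30 ± 0.12 (adjusted p = 0.058) and passed without IRI replicate 1 (-0.38 ± 0.12, 0.03) or sham replicate 2 (-0.39 ± 0.12, 0.026). All its nephron readings lay below the median intensity of every TRAP array. Cox8b and Ucp1 were lower without overlap, beside 28.5% of all genes, and did not pass. Ucp1 differed by -0.65 ± 0.29 (adjusted p = 0.09) and passed without sham replicate 3 (-0.96 ± 0.27, 0.015).

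Other droplet genes moved in the same nephron arrays. Of 12 genes of the droplet coat and lipolysis, 5 were higher and 1 lower after IRI, among them Plin2, the perilipin of non-fat cells (2.19 ± 0.12, adjusted p = 6.1e-08), and Hilpda, an inhibitor of lipolysis (1.46 ± 0.11, 9.6e-07). G0s2, which also inhibits lipolysis, was lower (-0.49 ± 0.11, adjusted p = 0.0036). Of 9 genes of fatty acid and glycerol uptake, Fabp4 alone was higher and 5 were lower, led by the glucose transporter Slc2a4 (-1.76 ± 0.08, adjusted p = 2.3e-08). Markers of cells that also make Fabp4 moved with it: 6 of 12 endothelial markers were higher and 1 lower, and 6 of 14 macrophage markers were higher and 2 lower. The mean level of the endothelial list ran from 7.49 to 7.78 after sham and from 7.88 to 8.12 after IRI. The macrophage list ran from 6.93 to 7.10 and from 7.30 to 7.55. Their part in the Fabp4 and Cidec values was not tested.

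At 4 h after IRI, Cidec, Ucp1 and Adipoq were lower in the nephron line than in the sham group. Cidec read 6.87, 7.45 and 7.16, below the 24 h sham arrays with no overlap (-0.78 ± 0.21, adjusted p = 0.013). Ucp1 read 6.87, 6.84 and 6.62 against 8.67, 7.39 and 7.12 after sham (-0.95 ± 0.29, adjusted p = 0.024). Adipoq read 5.90, 5.74 and 5.82 against 6.44, 5.98 and 6.06 (-0.34 ± 0.12, adjusted p = 0.041). These 3 of 9 members passed and did not overlap. Without surgery the nephron means were 7.28 for Cidec, 6.76 for Ucp1 and 5.98 for Adipoq. In the same gene order the 4 h means were 7.16, 6.78 and 5.82, and the sham means 7.94, 7.73 and 6.16. Of these 3 groups, sham had the highest mean in each gene. The 4 h arrays were not tested against no surgery. Adipoq lay below the median intensity of every TRAP array throughout the nephron line, so its shift is between low readings. The 4 h readings of Ucp1 lay near that median. Of all genes 31.3% passed, 18.5% were lower past the threshold and 27.4% lower without overlap. Time and injury cannot be told apart in this comparison because the sham animals were taken at 24 h. The sham group holds replicate 1, the highest of its group in every member. Without it Adipoq was at -0.20 ± 0.10 (adjusted p = 0.16) and Fabp4, at 0.19 ± 0.25 with all arrays, passed at 0.56 ± 0.15 (0.017). Cidec (-0.53 ± 0.18, adjusted p = 0.048) and Ucp1 (-0.48 ± 0.11, 0.0078) still passed without it. None of the 3 passed in the fit of all 57 arrays (adjusted p from 0.53 for Cidec to 0.79 for Adipoq). Leaving out IRI 4 h arrays ended calls as well: Cidec without replicate 1 (-0.63, adjusted p = 0.058), Ucp1 without replicate 3 (-0.87, 0.073), and Adipoq without any one of the 3 (0.054 to 0.12).

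Between nephron no surgery and sham, 0 of 9 members passed by limma and 2 had an unadjusted p under 0.05, beside 5.59% of all genes passing. The sham mice were 8 weeks old and the others 6, so age and surgery cannot be told apart. Ucp1 differed by 0.97 ± 0.29 (adjusted p = 0.07) and Cidec by 0.66 ± 0.21 (0.084), both with every sham array above every no-surgery array, as in 15.3% of all genes. Ucp1 passed without sham replicate 1 (0.49 ± 0.11, adjusted p = 0.047) or replicate 3 (1.27 ± 0.27, 0.036), and Cidec without sham replicate 2 (0.86 ± 0.21, 0.042). Without sham replicate 1 the Cidec difference was 0.41 ± 0.18 (adjusted p = 0.26).

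In the endothelial line Thrsp and Ucp1 fell after IRI. Thrsp read 10.14, 9.97 and 9.66 after sham and 7.17, 7.43 and 8.03 after IRI, with no overlap and a log2 difference of -2.38 ± 0.22 (adjusted p = 1.7e-05). Ucp1 read 8.86, 9.95 and 8.14 after sham and 6.82, 7.13 and 6.89 after IRI (-2.04 ± 0.41, adjusted p = 0.0025). The IRI values of Ucp1 lay in the range of the no-surgery arrays (7.56, 6.59 and 6.58), and the sham group was the high one. In the fit of all 57 arrays Ucp1 did not pass (adjusted p = 0.11). These 2 of 9 members passed, both without overlap. Of all genes 52.6% passed, 26.8% were higher and 25.8% lower past the threshold, and 28.5% were lower without overlap. Fabp4, high in every array of this line, read 12.18, 12.14 and 12.20 after sham and 11.98, 12.16 and 12.19 after IRI (-0.07 ± 0.07, adjusted p = 0.4).

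One endothelial sham array changed the count. Without sham replicate 1, the lowest of its group in 5 members, 6 members passed and all were lower after IRI. Those added were Adipoq (-0.70 ± 0.20, adjusted p = 0.02), Retn (-0.71 ± 0.12, 0.001), Cidec (-0.94 ± 0.13, 0.00052) and Cox8b (-0.67 ± 0.19, 0.017). Each of these passed in only 1 of 13 alternatives. Leaving out a sham array low in the members favours such calls. The share of all genes passing without that array is not given here, beside 52.6% with all arrays. With all arrays Cidec read 7.24, 8.13 and 8.39 after sham and 7.26 to 7.36 after IRI (-0.60 ± 0.25, adjusted p = 0.071). The regulators Pparg (-1.07 ± 0.09, adjusted p = 6.5e-06), the transcription factor of adipocyte differentiation, and Npr3, the clearance receptor for natriuretic peptides (-2.85 ± 0.16, 7.5e-07), were lower beside Thrsp. Markers of other cells moved too: 11 of 14 macrophage markers were lower and 7 of 8 neutrophil markers higher. The macrophage list ran from 11.33 to 11.54 after sham and from 10.01 to 10.53 after IRI, and its part was not tested.

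Between endothelial no surgery and sham, 0 of 9 members passed by limma, 4 had an unadjusted p under 0.05, and 0.455% of all genes passed. Ucp1 had the largest difference, 2.07 ± 0.41 (adjusted p = 0.082), with all 3 sham arrays above the no-surgery arrays, which also held for Cidec and for 8.01% of all genes. It passed without sham replicate 3 (2.49 ± 0.36, adjusted p = 0.028), and Cidec, at 0.83 ± 0.25 (0.27), passed without sham replicate 1 (1.17 ± 0.13, 0.024).

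In the myeloid line Retn rose and Thrsp fell after IRI. Retn read 6.52, 7.08 and 6.56 after sham and 7.89, 7.92 and 7.02 after IRI. One IRI array lay below the highest sham array, so the groups overlapped, and the difference was 0.89 ± 0.24 (adjusted p = 0.015). It did not pass without IRI replicate 1 (0.75 ± 0.27, adjusted p = 0.064), sham replicate 1 (0.79 ± 0.27, 0.056) or sham replicate 3 (0.81 ± 0.28, 0.057). Thrsp read 7.37, 7.44 and 7.11 after sham and 6.45, 6.80 and 6.42 after IRI, without overlap (-0.75 ± 0.11, adjusted p = 0.00072). In the fit of all 57 arrays neither passed, at 0.27 for Retn and 0.17 for Thrsp. Without sham replicate 2, the highest of its group in all members, both passed, at 1.07 ± 0.25 for Retn (adjusted p = 0.0093) and -0.68 ± 0.12 for Thrsp (0.0029). These 2 of 9 passed beside 40.1% of all genes. Of all genes 18.9% were higher, 21.2% lower, and 27.8% lower without overlap. In this line the IRI mice were 9.5 weeks old and the sham mice 7 weeks, so age and injury cannot be told apart.

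Beside Retn, its paralogue Retnlg, a product of granulocytes, was higher after IRI in the myeloid arrays by 4.05 ± 0.24 (adjusted p = 3.3e-06), and 5 of 8 neutrophil markers were higher. The neutrophil list ran from 7.03 to 7.31 after sham and from 8.57 to 9.08 after IRI. Proximal tubule markers were lower for 9 of 10, and that list ran from 9.99 to 11.16 and from 8.81 to 8.86. Their part in the Retn and Thrsp values was not tested.

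Myeloid IRI replicate 2 was the highest of its group in 8 members. Ucp1 read 6.85, 10.03 and 6.50 and Cidec 8.49, 9.70 and 7.09, so both rested on that array, and neither passed against sham (0.18 ± 0.83, adjusted p = 0.89, and 0.67 ± 0.57, 0.4). Without IRI replicate 3, the lowest of its group in all 9 members, Cidec (1.34 ± 0.43, adjusted p = 0.041) and Plin1 (0.74 ± 0.22, 0.031) passed. Between myeloid no surgery and sham 0 of 9 members passed by limma and 0 had an unadjusted p under 0.05, beside 0.936% of all genes passing. Cox8b alone was higher without overlap (0.46 ± 0.35, adjusted p = 0.53), as were 17.2% of all genes.

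A test of whether the IRI response of the interstitial line differed from the mean response of the other 3 lines was fitted on all 57 arrays. Of the members 0 of 9 passed by limma and 0 had an unadjusted p under 0.05, beside 15.5% of all genes. The largest differences were -1.29 ± 1.20 for Ucp1 (adjusted p = 0.51) and -1.005 ± 0.82 for Cidec (0.45). The fit shares the spread of every group, controls included, and Cox8b had an SD of 2.46 in wild-type background IRI. With standard errors this wide, 0 of 9 does not show that the lines responded alike.

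The background controls, in which no Cre was present, held the members unevenly. In the wild-type mice, whose ribosomes carry no tag, IRI replicate 1 read 10.07 for Adipoq where replicates 2, 3 and 4 read 6.75, 7.06 and 6.00. Cidec read 12.03 in that array against 8.08, 8.14 and 8.35, and Lep 9.95 against 5.89, 5.98 and 5.90. The log2 difference of that array from the mean of the other 3 was 4.87 for Cox8b, 4.03 for Lep, 3.84 for Cidec, 3.66 for Ucp1 and 3.47 for Adipoq. Among 19302 genes these differences ranked at 2, 3, 5, 7 and 9. The highest was Hp, which encodes haptoglobin, at 5.21, and Cyp27b1, Itih4, Prkar2b, Steap4, Cidea and Timp4 made up the rest of the first 12, all named after their ranks were seen. Plin1 (2.58), Retn (2.60), Thrsp (1.75) and Fabp4 (1.40) differed by less. Replicate 1 was singled out because it was highest in all 9 members, so the members' high ranks follow in part from that choice. The mean of the interstitial marker list was 9.81 in this array and 8.80 to 8.98 in the other 3, and that of the proximal tubule list 11.50 and 11.74 to 12.14. Their part was not tested.

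With that array, 0 of 9 members passed between IRI and sham in the wild-type background by limma (29.3% of all genes did), and 1 had an unadjusted p under 0.05. Fabp4 read 12.68, 11.22, 11.43 and 11.19 after IRI and 10.66 and 9.99 after sham, all IRI arrays being above the sham arrays, as in 25.7% of all genes (1.305 ± 0.44, adjusted p = 0.063). Without replicate 1 its difference was 0.96 ± 0.20 (adjusted p = 0.011). Adipoq moved from 0.67 ± 1.09 to -0.19, Cidec from 0.86 to -0.10 and Cox8b from 1.52 to 0.30 when that array was left out, and none passed either way. Of the 2 sham arrays, replicate 1 was above replicate 2 in all 9 members, at 10.33 and 7.43 for Ucp1.

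In the L10a background, IRI replicates 1 and 2 stood above replicates 3 and 4. Ucp1 read 10.00, 10.61, 6.97 and 6.87, Cox8b 9.90, 10.55, 6.81 and 6.90, and Adipoq 7.86, 8.53, 5.96 and 6.18. The mean difference between these pairs was 3.38 for Ucp1 and 3.37 for Cox8b, ranks 2 and 3 among 19302 genes behind Hp (3.57). It was 2.31 for Cidec, 2.13 for Adipoq, 1.41 for Retn, 1.29 for Thrsp, 1.07 for Plin1, 0.45 for Lep and 0.16 for Fabp4. The pairs were formed after the members were seen to be high in replicates 1 and 2, so the ranks follow in part from that choice. Fabp4 read 12.09, 12.27, 12.02 and 12.02 after IRI and 11.67 and 11.65 after sham, and was the 1 member that passed (0.44 ± 0.09, adjusted p = 0.0049), though not in the fit of all 57 arrays (0.26). Of all genes 45.7% passed and 22.0% were higher. Adipoq, Retn, Cidec, Plin1 and Fabp4 were higher without overlap, beside 34.5% of all genes. Replicates 1 and 2 were left out together after the members were seen to be high in them, so the calls are not independent of the values. That fit set replicates 3 and 4 against the sham arrays, and its share of all genes passing is not given here. In it 5 members passed. Those higher were Fabp4 (0.36, adjusted p = 0.013), Cidec (0.51, 0.009), Plin1 (0.38, 0.019) and Retn (0.34, 0.02), and Thrsp was lower (-0.94, 0.0071). Without IRI replicate 3 alone, Cidec (2.08 ± 0.65, adjusted p = 0.044) and Plin1 (1.12 ± 0.31, 0.029) passed beside Fabp4.

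**Figure D4:**
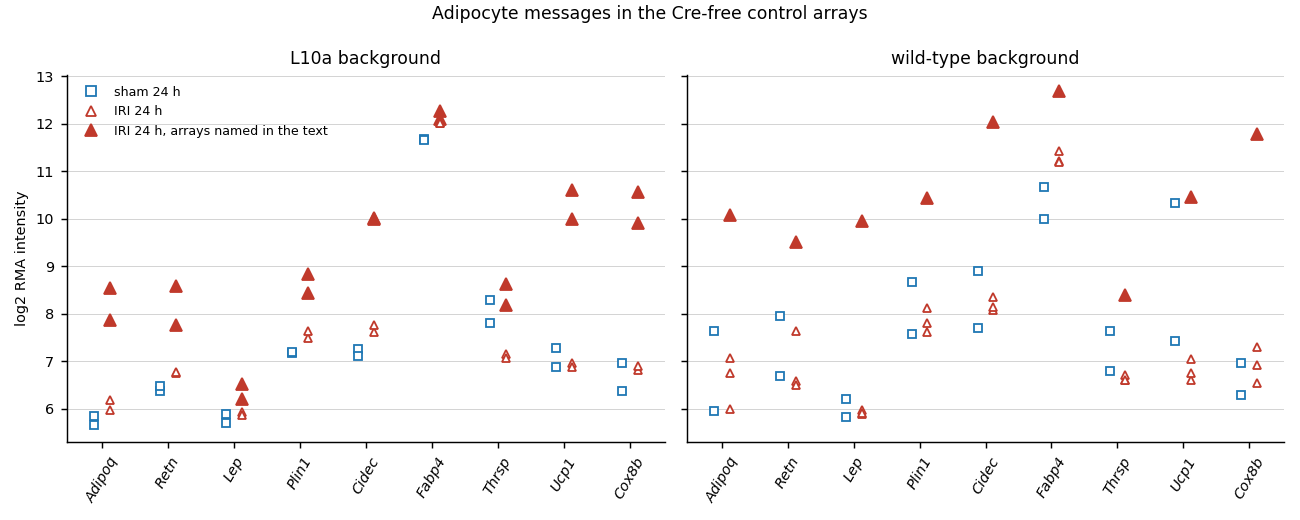
Log2 RMA intensity (vertical axis) of the 9 members in the L10a background (left) and the wild-type background (right), with open squares for sham arrays and triangles for IRI arrays; filled triangles are replicates 1 and 2 of the L10a group and replicate 1 of the wild-type group. The filled triangle of Cidec in the wild-type panel is at 12.03, above the open triangles at 8.08 to 8.35.

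In total RNA of whole kidney the members were uneven among the sham animals. Adipoq read 7.16, 5.34 and 7.80 after sham and 5.93, 5.43 and 5.24 after IRI, and Ucp1 10.06, 6.06 and 8.01 against 8.21, 5.73 and 6.19. Sham replicate 2 was the lowest of its group in all 9 members. Lep did not pass the filter on low values, and 0 of the other 8 passed the limma test, with 1 at an unadjusted p under 0.05, beside 4.98% of all genes. Thrsp read 7.07, 5.99 and 7.73 after sham and 5.91, 5.77 and 5.89 after IRI, without overlap, as in 17.9% of all genes (-1.07 ± 0.42, adjusted p = 0.21). Without sham replicate 2 the Thrsp difference was -1.54 (adjusted p = 0.13), that of Adipoq -1.95 in place of -1.24 (0.13), and that of Cox8b -2.12 in place of -1.11 (0.13). Within their arrays the sham values of Ucp1 stood at percentiles 94.4, 48.8 and 75.1 of all genes.

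Across the 51 TRAP arrays the members moved together in part. The median Pearson correlation over their 36 pairs was 0.70, from 0.26 for Fabp4 with Lep to 0.96 for Adipoq with Plin1. After each group's mean was removed the median was 0.74, from 0.33 for Ucp1 with Lep to 0.94 for Cidec with Plin1. Adipoq, Retn, Cidec and Plin1 correlated with each other at 0.86 to 0.94 around group means over the 51 arrays. In the 9 interstitial arrays around group means they correlated at 0.68 to 0.93, while Thrsp and Cox8b each correlated with Fabp4 at 0.93 and Ucp1 with Lep at -0.37. The arrays share their processing and groups, and these values are a description.

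The genes most like the members were named by their correlation with the mean of the standardised members. Over the 51 arrays they were Aoc3 (0.92), a vascular adhesion protein abundant on fat cells, Slc36a2 (0.92), an amino acid transporter of brown fat, Cidea (0.91), the droplet protein of brown fat, Trarg1 (0.90), which takes part in glucose transporter traffic, and Apoc1 (0.90). Adig, an adipogenesis protein, followed (0.88), with Ntrk2 and Postn (0.87 each) and Ccdc80 and Htra3 (0.86 each). Around group means the list was led by Slc36a2 (0.94) and Hp (0.93), with Aoc3 (0.89), Plin4 (0.88), Prkar2b, Cidea, Postn, Pparg and Rgs7 (0.87 each) and Apoc1 (0.86). Of the members, Adipoq had 0.96 with that mean over the 51 arrays, Thrsp 0.63 and Fabp4 0.55, each gene being itself a part of the mean.

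Most of these genes had the same order of means in the interstitial line as Adipoq. They were picked by correlation with the members over arrays that include the interstitial ones, so a shared order follows in part from that choice. Cidea read 9.99 ± 0.33 without surgery, 8.29 ± 1.66 after sham and 6.82 ± 0.62 after IRI, and Trarg1 9.98, 8.91 and 7.70. Hp did not: its means were 10.21 ± 1.08, 8.00 ± 0.73 and 10.29 ± 0.69, lowest after sham. Plin4, a droplet coat protein of white fat, had 9.30, 7.68 and 8.74.

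**Figure D5:**
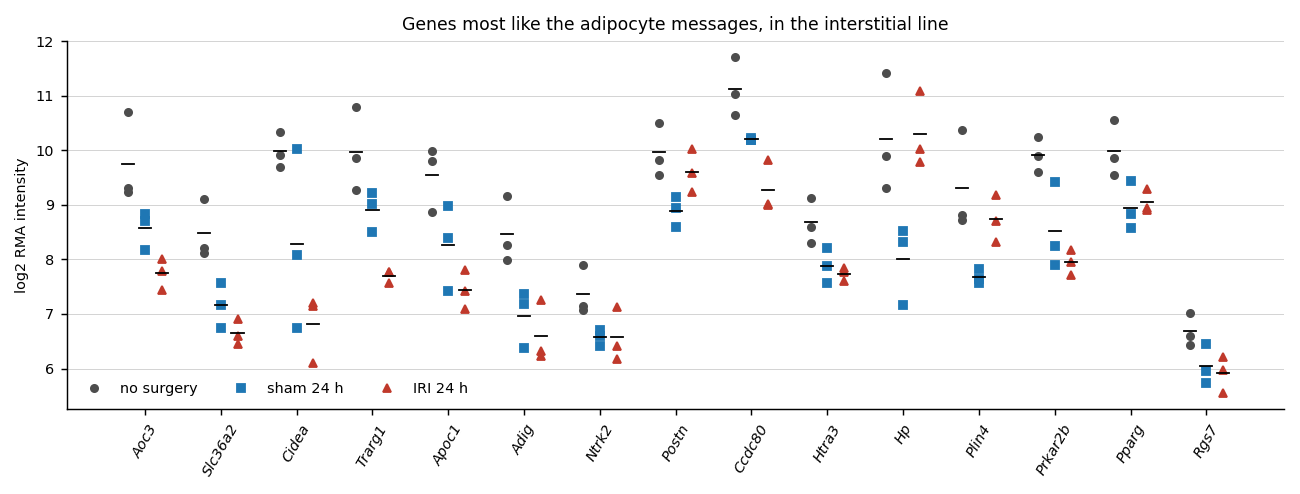
Log2 RMA intensity (vertical axis) in the 9 interstitial arrays of the 15 genes most correlated with the members, by treatment; symbols are arrays and bars are group means. The group mean of Cidea is 9.99 without surgery and 6.82 after IRI, while that of Hp is 10.21 without surgery and 10.29 after IRI.

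The members sit in pathways whose other genes were listed for comparison, and the counts of each list include its members. Some listed genes are also active in tubule or liver. The comparison of interstitial IRI with no surgery uses the arrays in which the members were noticed as high. Its counts and medians are therefore not independent of the choice of members. In interstitial IRI against no surgery, 0 of 15 genes of lipogenesis and triglyceride synthesis were higher and 11 lower, with a median log2 difference of -0.949 where that of all genes was 0.023. Of all genes 14.5% were higher and 19.8% lower. Beside Thrsp these included Dgat2, which makes triglyceride (-1.88 ± 0.14, adjusted p = 3.7e-05), the desaturase Scd1 (-1.52 ± 0.33, 0.0061) and Gpd1 (-1.46 ± 0.13, 8.2e-05). Of 9 uptake genes 6 were lower and 1 higher (median -1.293), with Slc2a4 at -2.09 ± 0.21 (adjusted p = 0.00012), Lpl, the lipase of the vessel wall, at -1.85 ± 0.29 (0.0012), and Cd36 at -1.67 ± 0.17 (0.00014). Of 12 droplet genes 7 were lower and 2 higher (median -0.524), with Cidea at -3.17 ± 0.69 (adjusted p = 0.0066) and Plin2 at 1.82 ± 0.14 (4.9e-05). Of 13 brown fat genes 6 were lower and 0 higher (median -1.199), among them Cox7a1 (-2.21 ± 0.36, adjusted p = 0.0015). Of 13 regulators and receptors 8 were lower and 2 higher (median -0.937), led by Hcar1, the lactate receptor of fat cells (-2.62 ± 0.16, adjusted p = 1.7e-05), and Trarg1 (-2.28 ± 0.33, 0.00081). Of 10 secreted products 4 were lower and 2 higher (median -0.886), with Rbp4 at -2.32 ± 0.40 (adjusted p = 0.0019) and the brown fat hormone Nrg4 at -2.31 ± 0.36 (0.0011) beside Adipoq and Retn. In the same arrays 7 of 10 proximal tubule markers and 7 of 16 interstitial markers were lower, and their part was not tested.

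Between IRI and sham in the interstitial line, where 0 members passed, other genes of these lists did, beside 15.2% of all genes higher and 18.6% lower. Of the lipogenesis list 7 of 15 were lower, led by Pck1 (-1.63 ± 0.25, adjusted p = 0.00096) and Me1 (-1.50 ± 0.14, 8.8e-05), and 9 of 10 proximal tubule markers were lower in the same arrays. Of the regulators 6 of 13 were lower and 2 higher, among them Hcar1 (-1.77 ± 0.16, adjusted p = 6.6e-05) and Trarg1 (-1.22 ± 0.33, 0.02). Of the secreted products Rbp4 was lower (-1.51 ± 0.40, adjusted p = 0.016), while Apln (1.46 ± 0.15, 0.00015) and Angptl4, an inhibitor of lipoprotein lipase (1.13 ± 0.30, 0.016), were higher. Between sham and no surgery fewer list genes passed: Dgat2 (-0.79 ± 0.14, adjusted p = 0.039), Hcar1 (-0.85 ± 0.16, 0.039), and the brown fat genes Kcnk3 (-0.66 ± 0.13, 0.045) and Ebf2 (-0.63 ± 0.13, 0.048) were lower, and Gpam (0.55 ± 0.11, 0.042) and Insr (0.87 ± 0.18, 0.047) higher. Of all genes 1.85% were higher and 0.496% lower there, and the no-surgery arrays are again those in which the members were noticed as high.

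Paralogues of the members differed in pattern. Cidea, related to Cidec, had a mean of 9.99 in the interstitial line without surgery and 6.07 to 6.15 in the other lines, and Plin4, related to Plin1, had 9.30 and 6.85 to 7.09. Cideb ran from 10.06 in the endothelial to 13.09 in the nephron line, with 12.37 in the interstitial line. Cox8a, the form of the oxidase subunit used in most tissues, had means of 12.81, 12.37, 12.91 and 12.52 in the no-surgery groups of the interstitial, endothelial, nephron and myeloid lines, whereas Cox8b was high in the first of them alone. Retnla, a resistin-like hormone of alternatively activated macrophages, was highest without surgery in the myeloid line (10.05) and read 6.34 in the interstitial line. Retnlg read 6.24 in the interstitial line without surgery and 9.88 after IRI. Ucp3 read between 5.86 and 6.87 and Cox8c between 6.12 and 6.37 in the no-surgery groups. Of the brown fat genes, Zic1 had means of 5.42 to 5.60 and Elovl3 of 5.56 to 5.72 over the same groups, so neither set the interstitial line apart as Ucp1 and Cox8b did. Zic1 and Elovl3 were singled out after their values were seen.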

How the data were processed

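Labelled RNA of 57 samples in 19 groups was hybridised to Affymetrix Mouse Gene 1.0 ST arrays. The deposited values are linear intensities made by the authors with RMA in Affymetrix Expression Console 1.3.1, per the submitters' processing notes, so log2 was taken here, although log2 values had been planned for. The genome build behind the probes is not given in the sources used here. The medians of the total RNA arrays lay apart from those of the TRAP arrays, so no level was set across them. Of 35556 probe sets, 21789 had 1 gene symbol, 1621 several and 12146 none, and a gene was read from its probe set of highest mean (19938 genes, 999 with several).

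Each line or control was fitted on its own with limma 3.58.1 in R 4.3.3, over genes above 5 on the log2 scale in at least 3 arrays, with Benjamini-Hochberg adjustment over all genes tested and a threshold of 0.05. The filter kept all 9 members in every fit except that of total RNA, which dropped Lep. The fits were tested on simulated data. Tables and figures used Python 3.11.15, pandas 2.3.3 and matplotlib 3.10.9. Promoters came from RefSeq (GRCm38.p6). The named genes were the members, list genes past the threshold with the largest changes, and the 10 genes most correlated with the members. The members and lists were chosen with earlier results of these data known. The number of arrays limits the precision. Alternatives were 1 fit of all arrays, the 2 groups alone, quantile normalisation, no filter, a replicate block, a trended robust fit and each array left out. IRI against no surgery in the interstitial line, and leaving out L10a background IRI replicates 1 and 2 together, were added after the data were seen.

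Same-numbered arrays of the 4 lines and the controls did not deviate together throughout: the lowest correlation of their deviations from group means was -0.584 and the highest 0.513. The numbers were therefore not taken as pairs.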

Additional observations from a re-analysis of the deposited data

Results flagged for a closer look

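In the wild-type background IRI group of 4 arrays, replicate 1 lay far above the other 3 in several members. Its gap to the nearest array, as a share of the whole range of the group, was 0.976 for Lep, 0.944 for Thrsp, 0.931 for Cidec, 0.886 for Ucp1, 0.857 for Cox8b and 0.844 for Fabp4. Each share passed Dixon's critical value for a group of 4. These were 6 of the 18 tests made (9 members in 2 groups of 4), where chance passes about 1 group in 20. All 6 come from the same array, so they are not independent of each other. The members were chosen for an uneven level with earlier results of these data known, so that chance rate may not hold for them.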

How the results depend on the processing

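Of 1599 recomputed member differences, 1505 kept their direction and side of the threshold or were called neither way, 41 lost the threshold, 53 gained it and 0 called values reversed. Among those never called, 74 (from 41 of 125 member differences) turned sign. In counts of members past the threshold, 1 fit of all 57 arrays gave 1 in place of 0 in interstitial IRI against sham, 5 in place of 3 in interstitial sham against no surgery, 1 in place of 2 in nephron and in endothelial IRI, 0 in place of 2 in myeloid IRI, 0 in place of 3 at 4 h, 1 in place of 0 in total RNA and the wild-type background, and 0 in place of 1 in the L10a background. The 2 groups alone gave 1 in interstitial IRI against sham and 1 at 4 h. In interstitial sham against no surgery, quantile normalisation gave 0 and no filter 1. Quantile normalisation moved the Fabp4 level without surgery in the interstitial line from 11.95 to 11.97, one of 9 among 153 group levels, all under that normalisation, that moved by more than the SD of their group. The fit of the 24 IRI and sham arrays gave 1 in place of 0 for the difference between lines, and leaving out L10a background IRI replicates 1 and 2 together gave 5 in place of 1. Leaving out 1 array at a time gave 0 to 3 members in interstitial IRI against sham, 0 to 4 in interstitial sham against no surgery, 0 to 1 in nephron and in endothelial sham against no surgery, 2 to 6 in endothelial IRI, 1 to 4 in myeloid IRI, 1 to 3 at 4 h, 1 to 3 in the L10a background and 0 to 1 in the wild-type background. The cause of these shifts was not tested.

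With the replicate number as a block, 1 member passed in interstitial sham against no surgery, 8 in the L10a background and 2 in the wild-type background. In both backgrounds only replicates 1 and 2 have a partner, so the block rests on those arrays. The share of all genes passing with the block in the L10a background is not given here, beside 45.7% without it. Over all genes, the calls in interstitial sham against no surgery were 444, and 1945 in 1 fit of all arrays, 23 under quantile normalisation, 281 with no filter, 84 with the block and 0 to 1380 with 1 array left out. Nephron sham against no surgery had 1067 (335 in 1 fit of all arrays, 368 to 884 with 1 array left out). Endothelial sham had 86 (164 in 1 fit, 20 with the 2 groups alone, 43 with the block, 20 to 186 with 1 array left out), and myeloid sham 177 (305, 26, 10 and 5 to 1187 in that order). At 4 h there were 5972 (3545 in 1 fit), in total RNA 689 (6072 in 1 fit, 47 with the block, 0 to 3804 with 1 array left out), in the wild-type background 5556 (3067 with the block, 2165 to 7258 with 1 array left out) and for the difference between lines 3000 (4936 on 24 arrays). Groups of 2 to 4 arrays limit every comparison.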

Other observations

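Plin2, the droplet coat protein of most cell types, and Hilpda, the inhibitor of lipolysis, were higher after IRI than after sham in the interstitial line (1.96 ± 0.14 and 1.86 ± 0.26 on the log2 scale), in the nephron line (2.19 ± 0.12 and 1.46 ± 0.11) and in the myeloid line (1.00 and 1.32). Plin1 did not pass in these comparisons.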
